A study of Rattus norvegicus with 6 samples.

Results

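The genes described here are 9 markers of fetal liver and of altered hepatocyte foci, Cd44, Afp, Gpc3, Igf2, H19, Ggt1, Aldh3a1, Akr1b8 and Akr7a3. They were matched by symbol, through the RefSeq accession that the scanner files give for each probe, to 17 of the 61537 probes on the array. All 17 probes are reported, because probes of 1 gene did not give the same answer. Liver RNA was measured on 1-colour arrays in 6 male Sprague-Dawley rats, an outbred stock, bought at 5 weeks of age. The treated group was 3 rats dosed daily with 100 mg/kg of carbon tetrachloride (CCl4), and the control group was 3 rats dosed with corn oil, with 1 array for every rat. CCl4 is a solvent made toxic by liver cytochrome P450 and a standard agent for injuring and scarring the rodent liver. The sample labels give both 28 days and 9 weeks for the exposure. The first slide held CCl4 replicate 1 and all 3 corn oil arrays, and the second slide held CCl4 replicates 2 and 3.

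Fetal hepatocytes express a set of genes that is largely silenced after birth. Part of this set can return when the adult liver regenerates, is injured or forms tumours. Alpha-fetoprotein, glypican 3, the fetal growth factor IGF2 and the long noncoding RNA H19 belong to it. Altered hepatocyte foci are small clones of changed hepatocytes that appear in rat liver after exposure to carcinogens. They are classically stained for gamma-glutamyltransferase, and detoxifying aldehyde dehydrogenases and aldo-keto reductases are raised in many of them. CD44, the main receptor for the matrix sugar hyaluronan, is found on leukocytes and on injured or proliferating epithelium, in many splice forms.

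Cd44 was the only one of the 9 genes that rose in CCl4 livers, on 2 of its 6 probes, by 4.61-fold and 4.5-fold. A further, dimmer and more variable probe gave 1.04-fold (95% interval 0.518 to 2.07). Akr7a3, the aflatoxin aldehyde reductase, was 2.48-fold higher on average but did not pass the test. The other 7 genes had fitted folds of 0.757 to 1.23 on their tested probes and did not pass. Of the 17 probes, 13 were well above background on all 6 arrays and were tested, and 4 were not tested because they were too dim. The test was limma, fitted to all 40478 probes that were well above background on at least 3 arrays, with Benjamini-Hochberg adjustment over all of them and a threshold of 0.05. Of the 13 tested member probes 2 passed (15.4%), both of Cd44 and both higher in CCl4 livers, against 0.341% of all probes tested (0.287% higher and 0.0544% lower). Counted by gene this was 1 of 9 (11.1%), against 0.544% of named genes with at least 1 probe past the threshold. With each gene held to its brightest probe it was 1 of 9, against 0.637%. The 2 Cd44 probes followed each other across the arrays and are not separate results. The members were also chosen with earlier results of these data known, so these shares are a description and no test of an excess. With slide as a block 0 member probes passed (2 at an unadjusted p below 0.05 in limma), against 0.0321% of all probes. The 2 groups did not overlap for 3 of the 13 probes (23.1%), and for 23.4% of all probes tested, so that share was near the background. In all 3 the CCl4 livers were the higher ones, which held for 9.69% of all probes. The median log2 change of the 13 probes was 0.11, against -0.04 over all probes tested. All levels below are log2 of the processed signal minus that of the array's 75th percentile. A level of 0 thus means as bright as the 75th percentile probe of that array. Probes are called bright or dim on this scale, but a brighter probe is not taken to mean more RNA than a dimmer one.

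**Figure D1:**
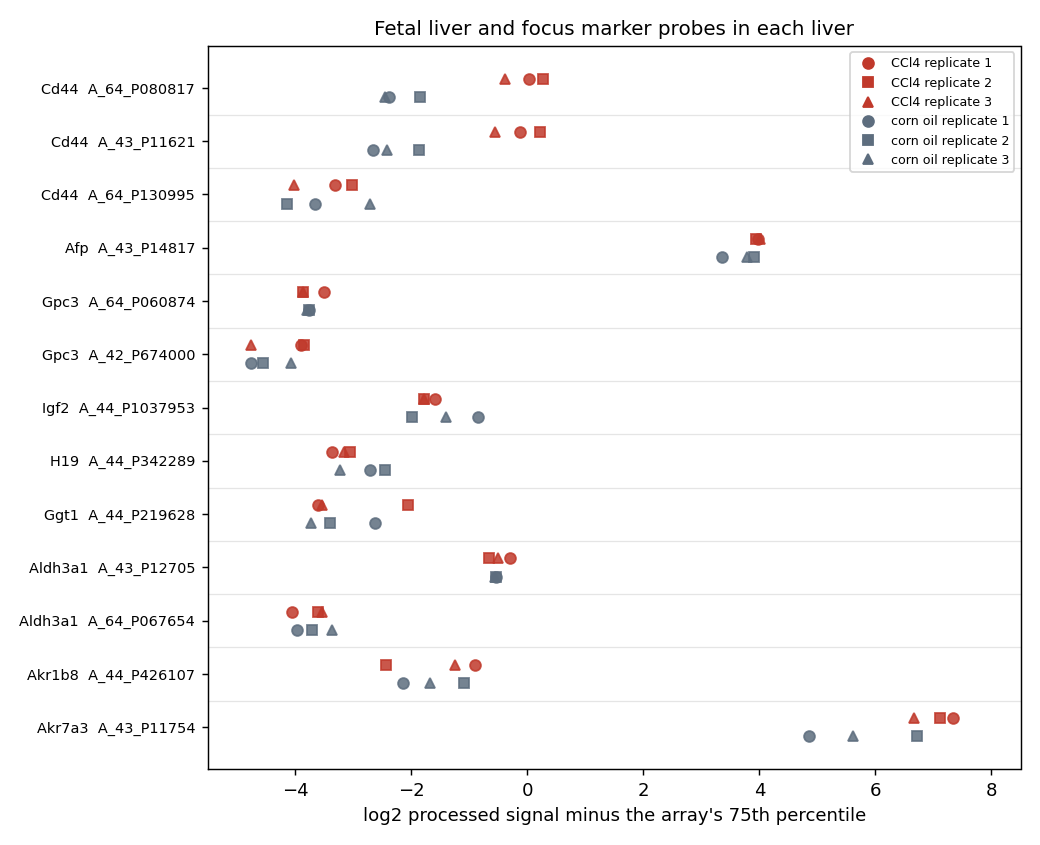
Level of each of the 13 tested probes in every liver (log2 processed signal minus the array's 75th percentile), with CCl4 livers in red above corn oil livers in grey and a marker shape for each replicate. The red and grey points stand apart for the first 2 Cd44 probes and, narrowly, for Afp, and overlap or nearly touch for the others.

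The upstream sequences of the 2 members with the largest fold change are shown first, as the regulatory DNA next to the genes the results turn on. They were read from RefSeq on the GRCr8 build and run from 250 bases before the annotated start to 50 after it. Such sequences were matched for 7 of the 9 genes, and none was matched for H19 and Aldh3a1. Capitals mark matches, on either strand, to GCGTG, the core bound by the aryl hydrocarbon receptor, or to TGANNNNGC, the core of the antioxidant response element. A search for TGANTCA, the AP-1 motif, used the same windows.
Cd44, chr3:109699375-109699674, minus strand: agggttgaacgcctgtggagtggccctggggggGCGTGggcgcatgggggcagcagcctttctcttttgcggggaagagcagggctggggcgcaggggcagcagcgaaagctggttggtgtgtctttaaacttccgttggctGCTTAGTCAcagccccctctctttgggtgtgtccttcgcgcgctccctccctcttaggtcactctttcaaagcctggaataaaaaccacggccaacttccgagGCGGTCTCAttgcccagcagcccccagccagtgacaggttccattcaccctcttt
Akr7a3, chr5:156876471-156876770, plus strand: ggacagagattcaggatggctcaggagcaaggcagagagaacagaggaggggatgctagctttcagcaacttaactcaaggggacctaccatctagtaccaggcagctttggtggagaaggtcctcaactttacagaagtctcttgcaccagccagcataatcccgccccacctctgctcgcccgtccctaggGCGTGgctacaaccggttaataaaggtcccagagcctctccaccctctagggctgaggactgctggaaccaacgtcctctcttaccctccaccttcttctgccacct
The Cd44 window held 1 match to GCGTG and 2 to TGANNNNGC, which did not overlap each other. The Akr7a3 window held 1 match to GCGTG and 0 to TGANNNNGC. Neither window held TGANTCA. Of 33469 promoter windows of the same length, 29.7% held GCGTG, 40.5% held TGANNNNGC and 7.33% held TGANTCA, so these are common letters, and a match is a description of the sequence and not a binding site.

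Cd44 was measured by 6 probes, all assigned to the same RefSeq transcript. On the brightest, A_64_P080817, the level was 0.04, 0.28 and -0.38 in the CCl4 livers, against -2.38, -1.84 and -2.45 in the corn oil livers. On A_43_P11621 the level was -0.12, 0.22 and -0.55 in the CCl4 livers, against -2.66, -1.87 and -2.42 in the corn oil livers. On both probes every CCl4 liver was above every corn oil liver, and CCl4 replicate 2 was the highest in its group, as was corn oil replicate 2. The log2 change was 2.21 ± 0.24 on A_64_P080817 (SE, n = 3 per group, 95% interval 1.64 to 2.77, limma adjusted p = 0.031) and 2.17 ± 0.27 on A_43_P11621 (95% interval 1.52 to 2.82, limma adjusted p = 0.0462). The 2 probes followed each other across the 6 arrays, with a Pearson r of 0.996, which partly describes the group difference that both carry.

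The third tested Cd44 probe, A_64_P130995, gave -3.31, -3.01 and -4.01 in the CCl4 livers, against -3.65, -4.13 and -2.71 in the corn oil livers. Here the groups overlapped, and corn oil replicate 3 was the highest of all 6 livers. The probe was brighter than only 21.5% of tested probes. Its SD within groups, 0.63, was higher than that of 93.8% of them. The log2 change was 0.05 ± 0.42 (95% interval -0.95 to 1.05, limma adjusted p = 0.964), an interval that does not reach the change of either brighter probe. Within an array, the difference between A_64_P080817 and A_64_P130995 was 3.35, 3.30 and 3.63 in the CCl4 livers, against 1.27, 2.29 and 0.25 in the corn oil livers. The changes of these 2 probes thus differed by 2.16, with every CCl4 array above every corn oil array, and those of A_43_P11621 and A_64_P130995 by 2.12. An exact two-sided permutation test gave p = 0.1 for each, the smallest that 3 against 3 arrays allow, and 0.25 after adjustment over the 5 probe pairs compared within members. The brighter 2 Cd44 probes differed in their change by 0.04 (exact permutation p = 0.8).

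The remaining 3 Cd44 probes were too dim to be tested. Their processed signals are given in the scanner's intensity units. A_64_P280765 read 15, 25 and 11 units in the CCl4 livers, against 3, 3 and 4 units in the corn oil livers, and it was well above background in 1 of the 6, CCl4 replicate 2. A_44_P491308 read 11, 12 and 14 units in the CCl4 livers, against 3, 7 and 5 units in the corn oil livers. A_64_P130999 read 16, 10 and 3 units in the CCl4 livers, against 3 units in each corn oil liver. The last 2 were not well above background on any array, and no fold is given for the 3 probes. For each of them the lowest CCl4 signal was at or above the highest corn oil signal. Of the probes that were tested, 23.4% had groups that did not overlap, in either direction. The lowest level called well above background was also higher on the CCl4 arrays (-4.98, -5.28 and -5.34) than on the corn oil arrays (-5.66, -5.58 and -5.38). No change is therefore read from signals this low. Which part of the Cd44 transcript each probe reads was not analysed here, so the difference between probes is not assigned to a splice form.

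**Figure D2:**
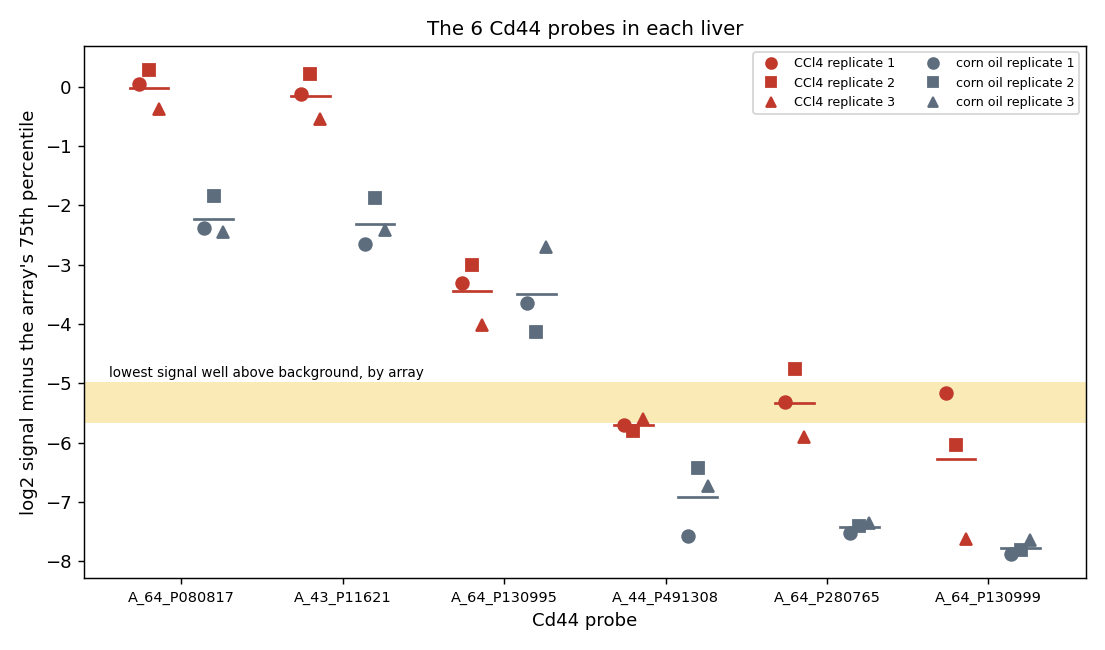
Level of the 6 Cd44 probes (log2 signal minus the array's 75th percentile), with the CCl4 livers in red left of the corn oil livers in grey, a marker shape for each replicate and a bar for each group mean. The yellow band spans the lowest signal called well above background on each array, from -5.66 to -4.98, and the 3 probes on the right lie mostly in or under it.

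Whether Cd44 passed changed with the arrays fitted and with slide as a block, while the size of its change moved little. On A_64_P080817 the log2 change was 2.27 with slide as a fixed block (limma adjusted p = 0.205) and 2.27 within the first slide (adjusted p = 0.19), where CCl4 replicate 1 stands alone against 3 corn oil arrays. A_43_P11621 gave 2.20 with slide as a block (limma adjusted p = 0.23) and 2.20 within the first slide (adjusted p = 0.231). When CCl4 livers were left out in turn, the change on A_64_P080817 was 2.18 (limma adjusted p = 0.127) with replicate 1 left out, 2.06 (adjusted p = 0.135) with replicate 2 left out and 2.39 (adjusted p = 0.0279) with replicate 3 left out. When corn oil livers were left out in turn, it was 2.13 (limma adjusted p = 0.113) with replicate 1 left out, 2.40 (adjusted p = 0.054) with replicate 2 left out and 2.09 (adjusted p = 0.107) with replicate 3 left out. The size of the change stayed between 2.06 and 2.40, and the call was kept in 1 of the 6 cases. In the same order, the count of all probes past the threshold was 9, 2, 256, 26, 24 and 21, against 138 with all arrays. It was 13 with slide as a block, so calls were lost over the whole array and not only for Cd44.

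**Figure D3:**
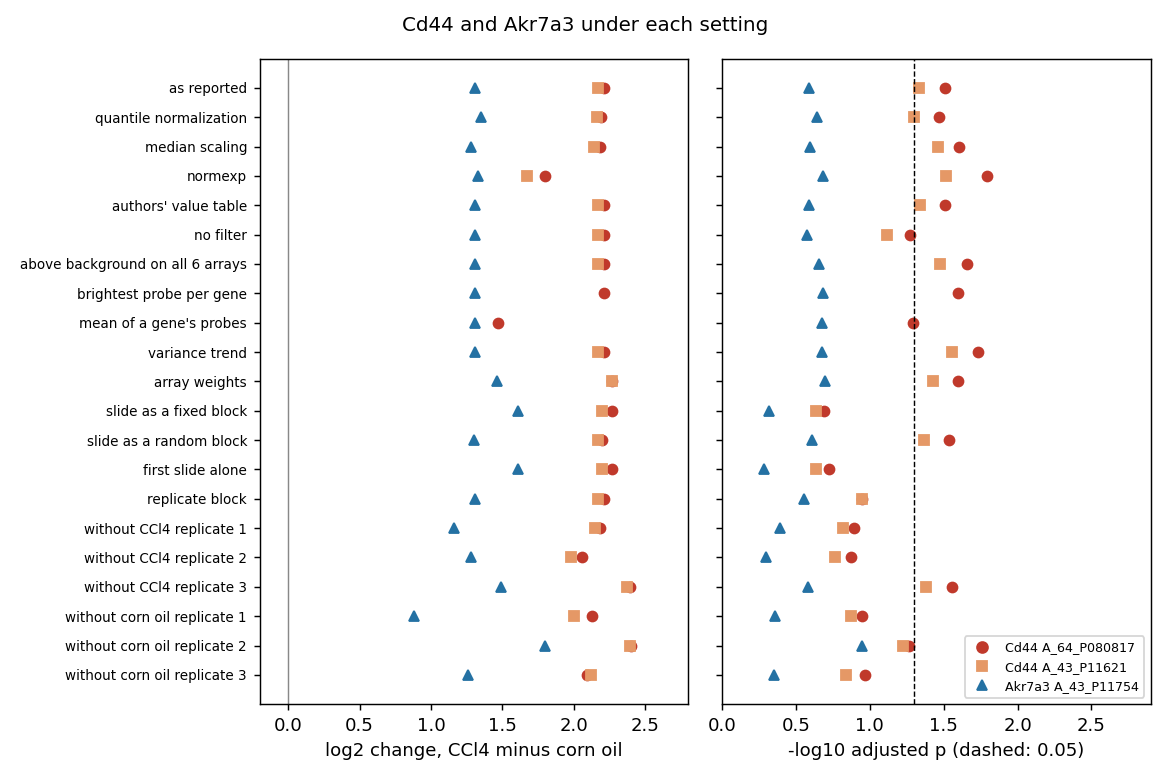
Log2 change, CCl4 minus corn oil (left), and -log10 of the limma adjusted p (right, dashed line at 0.05) for 2 Cd44 probes and the Akr7a3 probe under each setting of the analysis. The Cd44 changes stay between 1.47 and 2.40 while many of their adjusted p values fall left of the line, and Akr7a3 stays left of it in every setting.

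Marker lists of liver cell types, some of which carry CD44, were read in the same arrays. A list of cell division genes, which are not particular to a cell type, was read with them. The level of a list in an array is the sum, over its genes, of the signal of the brightest tested probe in multiples of the array's 75th percentile. Of 13 macrophage and monocyte markers, all tested, 2 rose and 0 fell, Trem2 and Lgals3, and the summed level was 180 to 201 in CCl4 livers, against 140 to 154 in corn oil livers. Of 10 tested T and NK cell markers 0 rose and Gzma fell, with a summed level of 4.80 to 4.98 in CCl4 livers, against 4.93 to 7.01 in corn oil livers. Of 3 tested B cell markers, 3 tested neutrophil markers and 7 tested bile duct and progenitor markers 0 passed. The B cell sum was 1.87 to 2.47 in CCl4 livers and 2.88 to 3.21 in corn oil livers, and the neutrophil sum was 1.28 to 3.74 in CCl4 livers and 2.17 to 4.95 in corn oil livers. The bile duct sum was 2.22 to 4.96 in CCl4 livers and 1.83 to 1.98 in corn oil livers. Of 10 stellate cell and myofibroblast markers 0 passed, and their sum was 56.1 to 79.7 in CCl4 livers, against 42.2 to 50.5 in corn oil livers. Of 9 tested cell division genes 4 rose, Aurka, Ccna2, Rrm2 and Ube2c, with a sum of 10.4 to 13.8 in CCl4 livers, against 3.08 to 4.18 in corn oil livers. The neutrophil markers Elane, Cxcr2 and Mmp8 and the T cell marker Cd5 were too dim to be tested. Of 4 tested endothelial and 4 tested erythroid markers 0 passed. The endothelial sum was 32.6 to 39.1 in CCl4 livers and 40.3 to 47.3 in corn oil livers, and the erythroid sum was 118 to 348 in CCl4 livers and 197 to 305 in corn oil livers. Such sums are carried by the brightest genes of a list, and the single markers did not all follow them. The groups stood apart for 9 of 9 cell division genes (median log2 difference 1.53, 9 positive), 7 of 13 macrophage markers (median 0.47, 9 positive and 4 negative) and 5 of 10 stellate cell markers (median 0.20, 8 positive and 2 negative). They stood apart for 1 of 7 bile duct markers, Epcam (median 0.07, 5 positive and 2 negative), 1 of 4 endothelial markers (median 0.05, 2 positive and 2 negative) and 1 of 3 B cell markers (median -0.38, 3 negative). The same held for 5 of 10 hepatocyte markers, all lower in CCl4 livers, and for 2 of 10 T and NK cell markers. It held for 1 of 4 erythroid and 0 of 3 neutrophil markers. Over all probes tested the share, in either direction, was 23.4%. As for the calls, 0.544% of all named genes tested had at least 1 probe past the threshold. The part of these markers in the Cd44 change was not tested. The liver label was borne out by 10 of 10 hepatocyte markers, whose sum was 4940 to 5430 in CCl4 livers, against 6020 to 6350 in corn oil livers, with 0 past the threshold, a median log2 difference of -0.26 and 10 of 10 negative. In whole liver, fewer cells of a type and less RNA per cell cannot be told apart.

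Of the partners of CD44, 18 of 28 listed genes of hyaluronan metabolism and CD44 binding were tested and 0 passed in either direction, with a median log2 change of 0.05, against -0.05 for the brightest probe of all genes tested. Spp1 encodes osteopontin, a secreted ligand of CD44. Its level was -1.02, -2.19 and 1.57 in the CCl4 livers, against -1.99, -2.30 and -1.75 in the corn oil livers, a log2 difference of 1.46 ± 0.89 (limma adjusted p = 0.456). CCl4 replicate 3, which was the lowest CCl4 liver for Cd44, was the highest for Spp1. Hyal1, a hyaluronidase, differed by 0.83 ± 0.31 (adjusted p = 0.28), and Cd74, the class II invariant chain that pairs with CD44 in a surface receptor, by 0.79 ± 0.17 (adjusted p = 0.121). Ezr, which links CD44 to the actin cortex, was at 1.30, 1.18 and 1.40 in CCl4 livers, against 0.58, 0.75 and 0.23 in corn oil livers, and its difference of 0.77 ± 0.16 did not pass (limma adjusted p = 0.118). By brightest probe, 10 of the 18 tested genes were higher on average and 8 lower. Among the lower ones, Rdx differed by -0.40 ± 0.12 and Itih1 by -0.57 ± 0.15, and neither passed (limma adjusted p = 0.209 and 0.161). For both, every CCl4 liver was below every corn oil liver on that probe. The hyaluronan synthase genes Has2 and Has3 and the receptor gene Hmmr were too dim to be tested.

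Across the 6 arrays, the genes whose brightest probe was most like that of Cd44 were Perp, Derl3 and Cxcl16, with Pearson r of 0.998, 0.997 and 0.997. These were the 3 highest among 11101 genes well above background on every array, and the arrays share 2 treatment groups. Derl3 changed by 2.86 and Cxcl16 by 1.63 on the log2 scale (limma adjusted p = 0.0333 each), and Perp differed by 0.58 (adjusted p = 0.0988). Among the other members, Akr7a3 had an r of 0.85 and Afp of 0.70 with Cd44, and Igf2 had -0.52.

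Afp was bright in both groups. Its single probe gave 3.97, 3.94 and 4.01 in the CCl4 livers, against 3.36, 3.90 and 3.78 in the corn oil livers. The 3 CCl4 livers lay close together and just above every corn oil liver, the nearest of which was corn oil replicate 2. The log2 change was 0.29 ± 0.16 (95% interval -0.10 to 0.69, limma adjusted p = 0.423), a fold of 1.22 with an interval of 0.932 to 1.61. Corn oil replicate 1 was the lowest liver, and without it the difference was 0.13. Of 14 listed genes of the albumin family and of Afp regulators, all tested, 0 passed, with a median of -0.28. Alb, the adult relative of Afp, was at -0.21 ± 0.15 (limma adjusted p = 0.508). The Afp repressors Zhx2 (0.48 ± 0.34, adjusted p = 0.521) and Zbtb20 (0.02 ± 0.13, adjusted p = 0.944) did not pass in limma. Zhx2 was dim, at 20 to 50 units on the brightest of its 3 probes. That probe was well above background in 2 of the 3 CCl4 livers and in all 3 corn oil livers. The liver transcription factor genes Onecut1 and Foxa3 differed by -1.27 ± 0.88 (limma adjusted p = 0.509) and -0.61 ± 0.24 (adjusted p = 0.298).

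Gpc3, a heparan sulfate proteoglycan of the fetal liver surface, was dim and had 3 probes. A_64_P060874 gave -3.50, -3.87 and -3.86 in the CCl4 livers, against -3.76, -3.76 and -3.80 in the corn oil livers, a log2 change of 0.03 ± 0.14 (95% interval -0.30 to 0.36, limma adjusted p = 0.932). A_42_P674000 gave -3.89, -3.84 and -4.75 in the CCl4 livers, against -4.75, -4.55 and -4.07 in the corn oil livers, with a change of 0.29 ± 0.30 (95% interval -0.42 to 1.01, limma adjusted p = 0.651). Both overlapped between groups, and their changes differed by -0.26 (exact permutation p = 0.6). The third probe, A_44_P535568, was not well above background on any array, at 9, 13 and 16 units in CCl4 livers and 6, 11 and 11 units in corn oil livers. Of 12 listed glypican and heparan sulfate genes 9 were tested and 0 passed, with a median of 0.01. By brightest probe, the largest differences were those of Notum, which removes lipid from Wnt proteins, Ext1, a heparan sulfate polymerase, and Gpc1. They were -0.96 ± 0.22, 0.54 ± 0.16 and 0.31 ± 0.12, with limma adjusted p of 0.132, 0.209 and 0.288. The mean of the tested Gpc1 probes gave a larger difference, 0.91 (limma adjusted p = 0.244).

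Igf2 and H19 are neighbouring imprinted genes that are expressed together in fetal liver. Igf2 gave -1.58, -1.77 and -1.77 in the CCl4 livers, against -0.84, -1.98 and -1.40 in the corn oil livers. The CCl4 livers lay inside the range of the corn oil livers, and the change was -0.30 ± 0.28 (95% interval -0.97 to 0.37, limma adjusted p = 0.624). Corn oil replicate 1 was the highest liver for Igf2, and without it the difference was -0.018. H19 gave -3.37, -3.06 and -3.15 in the CCl4 livers, against -2.70, -2.45 and -3.23 in the corn oil livers. For H19 corn oil replicate 3 fell among the CCl4 livers and the other 2 corn oil livers lay above them, with a change of -0.40 ± 0.22 (95% interval -0.93 to 0.12, limma adjusted p = 0.413). Of 15 listed IGF axis genes 14 were tested and 0 passed, with a median of -0.13. Igfals, which stabilises circulating IGF, was at 3.37, 2.97 and 3.38 in CCl4 livers and at 4.15, 3.88 and 4.12 in corn oil livers (difference -0.81 ± 0.16, limma adjusted p = 0.105). Irs2, an adaptor of the insulin receptor, differed by -0.75 ± 0.18 on its brightest probe and by -0.30 on the mean of its tested probes. Igfbp2 differed by -0.60 ± 1.04. Of 20 listed imprinted genes 13 were tested and 0 passed, with a median of 0.13, and the largest differences were those of Dcn (1.03 ± 0.37), Mest (0.80 ± 0.23) and Phlda2 (0.52 ± 0.23, limma adjusted p = 0.326).

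Ggt1 encodes gamma-glutamyltransferase, which splits extracellular glutathione. Its probe gave -3.60, -2.06 and -3.54 in the CCl4 livers, against -2.62, -3.40 and -3.72 in the corn oil livers. CCl4 replicate 2 was high and the other 2 CCl4 livers lay with the corn oil livers, so the groups overlapped. The change was 0.18 ± 0.48 (95% interval -0.98 to 1.34, limma adjusted p = 0.879), and it was -0.33 without CCl4 replicate 2, -0.06 without corn oil replicate 3 and -0.36 with slide as a block. The SD within groups, 0.73, was higher than that of 95.7% of tested probes. Of 20 listed genes of the glutathione cycle 18 were tested and 0 passed, with a median of -0.08. Gpx2, a glutathione peroxidase best known from the gut, was at 3.23, 4.02 and 2.03 in CCl4 livers, against -2.42, 0.42 and -1.04 in corn oil livers on its brightest probe. All CCl4 livers were above all corn oil livers, and the difference of 4.11 ± 0.80 did not pass (limma adjusted p = 0.102). Gpx3, the plasma peroxidase, differed by 1.53 ± 0.52. Chac1, which degrades glutathione inside cells, differed by -0.74 ± 0.23 on its brightest probe (limma adjusted p = 0.212). The mean of its tested probes differed by -1.13.

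Aldh3a1 encodes an aldehyde dehydrogenase that rat hepatomas express and that the aryl hydrocarbon receptor induces. A_43_P12705 gave -0.29, -0.65 and -0.51 in the CCl4 livers, against -0.54, -0.53 and -0.55 in the corn oil livers. Its change of 0.05 ± 0.13 had one of the narrower intervals among the members, -0.25 to 0.36 (limma adjusted p = 0.861). The dimmer A_64_P067654 gave -4.06, -3.61 and -3.53 in the CCl4 livers, against -3.97, -3.71 and -3.37 in the corn oil livers, with a change of -0.05 ± 0.21 (95% interval -0.57 to 0.46, limma adjusted p = 0.921). The groups overlapped on both probes, whose changes differed by 0.11 (exact permutation p = 0.8). Of 25 listed aldehyde dehydrogenases and receptor targets 18 were tested and 0 passed, with a median of -0.05. The mitochondrial enzyme gene Aldh1b1 differed by 1.97 ± 0.68 on its brighter probe and 0.04 ± 0.14 on the other (limma adjusted p = 0.251 and 0.896). The receptor target Cyp1a2 was at 4.92, 4.23 and 4.58 in CCl4 livers and at 6.01, 5.55 and 5.41 in corn oil livers (difference -1.08 ± 0.23, limma adjusted p = 0.121), and Aldh1a3, a retinal dehydrogenase, differed by 0.84 ± 0.23. The receptor's targets Cyp1a1, Cyp1b1 and Ahrr were too dim to be tested.

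Akr1b8 and Akr7a3 encode aldo-keto reductases that reduce reactive aldehydes. Akr1b8 gave -0.90, -2.43 and -1.25 in the CCl4 livers, against -2.14, -1.08 and -1.68 in the corn oil livers. CCl4 replicate 2 was the lowest of the 6 and CCl4 replicate 1 the highest, so the groups overlapped throughout. The change was 0.11 ± 0.45 (95% interval -0.97 to 1.18, limma adjusted p = 0.926). The sign of this change depended on single arrays: with 1 liver left out it was -0.21 for CCl4 replicate 1, -0.03 for CCl4 replicate 3 and -0.15 for corn oil replicate 1.

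Akr7a3 was brighter than 97.2% of the tested probes. Its probe read 94606, 93422 and 68009 units in the CCl4 livers, against 17347, 62386 and 28591 units in the corn oil livers, with no saturated spot. On the log2 scale this was 7.34, 7.11 and 6.67 in the CCl4 livers, against 4.86, 6.71 and 5.62 in the corn oil livers. Only corn oil replicate 2 reached the lowest CCl4 liver, and the corn oil livers spread more widely (SD 0.93) than the CCl4 livers (SD 0.34). The change was 1.31 ± 0.46, a fold of 2.48 with a 95% interval of 1.15 to 5.36. It passed at an unadjusted p of 0.0272 in limma, as did 16.0% of all probes tested, but not after adjustment (adjusted p = 0.256). With slide as a block the difference was 1.61. It was 0.88 when corn oil replicate 1 was left out and 1.80 when corn oil replicate 2 was. The genes most like Akr7a3 across the 6 arrays were Evl, Gltp and Niban1 (Pearson r of 0.996, 0.994 and 0.992). Akr7a3 and Afp had an r of 0.90, with corn oil replicate 1 lowest for both.

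Of 17 listed aldo-keto reductase genes 15 were tested and 0 passed, with a median of 0.04. Akr7a2, the close relative of Akr7a3, was at -0.02 ± 0.17 (limma adjusted p = 0.971), and the probes of related reductases may not be specific. The largest differences were those of Akr1c2 (-1.31 ± 1.09), Kcnab2 (0.99 ± 0.51) and Akr1c1 (-0.82 ± 0.66). Akr1c2 was 0.65 with slide as a block, so its sign was not stable. Of 27 listed targets and regulators of NRF2, the transcription factor of the antioxidant response, 25 were tested and 0 passed, with a median of 0.15. Srxn1, a sulfiredoxin, differed by 1.05 ± 0.35 on its brightest probe and by 0.67 on the mean of its tested probes. Osgin1 differed by -1.06 ± 0.38. Nqo1 was at -0.39 ± 0.29 and the glutamate-cysteine ligase gene Gclc at -0.23 ± 0.21 (limma adjusted p = 0.529 and 0.614).

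**Figure D4:**
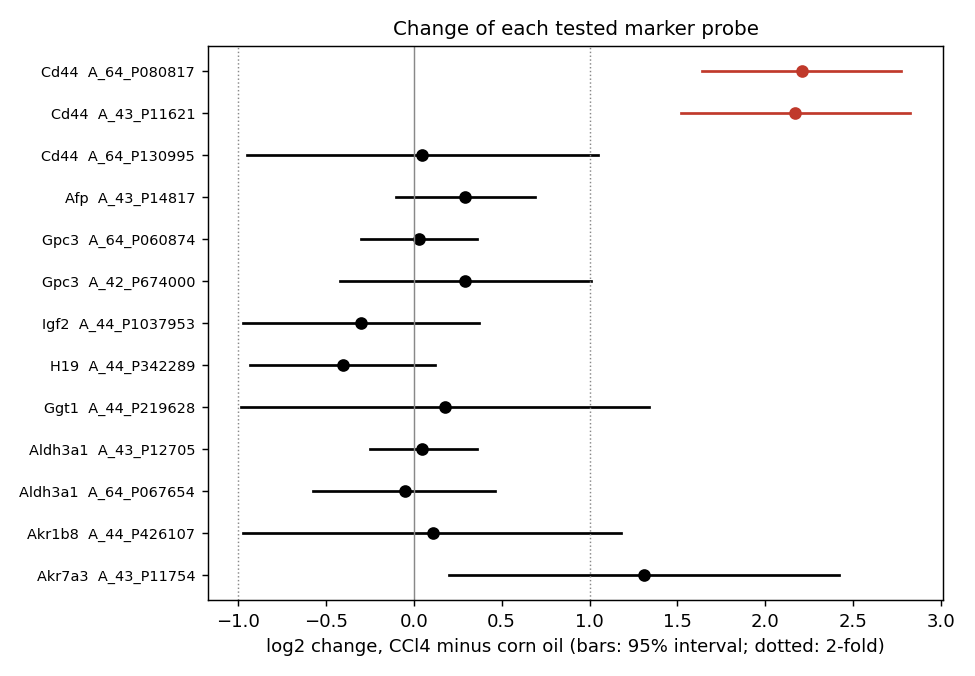
Log2 change, CCl4 minus corn oil, of the 13 tested probes, with bars for the 95% interval from limma and dotted lines at 2-fold. The 2 Cd44 probes in red lie wholly beyond 2-fold, 6 probes lie wholly within it, and the other 5 cross a line.

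The precision differed among the members. For 6 of the 11 probes that did not pass, those of Afp, Igf2, H19 and Aldh3a1 and the brightest of Gpc3, the 95% interval lay within 2-fold in either direction. For Ggt1, Akr1b8, Akr7a3, the second Gpc3 probe and the third Cd44 probe it reached past 2-fold. Over all 13 this share was 46.2%, against 79.5% of all probes tested, and the SD within groups was above the median of all tested probes, 0.21, for 10 of the 13. Pearson r over the 6 arrays was 0.93 between Gpc3 and Aldh3a1, -0.91 between Afp and Igf2 and -0.85 between Ggt1 and Akr1b8, on the brightest probe of each. These describe 6 arrays that share 2 groups and 2 slides. By the same measure the nearest genes were Polr2g, Nop58 and Cyp2c12 for Afp (r of 0.992, 0.982 and 0.970), Lamtor1, Eid1 and Ankrd9 for Gpc3 (0.991, 0.982 and 0.980) and C1s, Akr1e2 and Dtx2 for Igf2 (0.977, 0.971 and 0.970). They were Rnf34, Gprasp3 and Wfdc3 for H19 (0.993, 0.988 and 0.985), Cxcl14, Gpa33 and Pde4d for Ggt1 (0.982, 0.956 and 0.949), Gtdc1, Zc3h8 and Dnajc19 for Aldh3a1 (0.980, 0.971 and 0.964) and Mrps16, Gtf2h5 and Myo1e for Akr1b8 (0.992, 0.989 and 0.987).

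Abcb1b rose among the other fetal liver and focus markers, and of the 18 genes tested from a list of 26 it was the 1 that passed, with a median for the list of 0.50. Abcb1b encodes a P-glycoprotein, a drug exporter of the rodent hepatocyte that is raised in foci and after injury. On A_64_P039888 it was at 6.27, 6.53 and 4.89 in the CCl4 livers, against -0.49, -0.32 and 0.06 in the corn oil livers, a log2 change of 6.15 ± 0.43 (limma adjusted p = 0.0113). On A_44_P141897 it was at 1.83, 2.46 and 0.95 in the CCl4 livers, against -3.86, -2.91 and -3.40 in the corn oil livers, with a change of 5.14 ± 0.42 (limma adjusted p = 0.0169). All CCl4 livers were far above all corn oil livers on both, with CCl4 replicate 3 the lowest of its group. The brightest probe, A_64_P010925, gave 5.98, 6.24 and 4.77 in the CCl4 livers, against 3.24, 3.35 and 3.37 in the corn oil livers, and its smaller change of 2.34 ± 0.37 did not pass (limma adjusted p = 0.0771). A near-identical paralogue, Abcb1a, exists, and which of the 2 genes each probe reads was not analysed here. With slide as a block the change on A_64_P039888 was 6.52 and on A_44_P141897 5.22, and 0 listed genes passed.

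Across all 10 lists of related genes, 153 of 192 genes were tested and 1 passed (0.654%), against 0.544% of named genes, so the count was near the background. Without a pass in limma, Spink1, a secreted trypsin inhibitor, was at 2.10, 2.86 and 0.72 in CCl4 livers, against -0.87, -0.67 and -1.64 in corn oil livers (difference 2.95 ± 0.55, limma adjusted p = 0.0988). Abcc3, a bile acid and conjugate exporter, differed by 2.20 ± 0.43 (adjusted p = 0.105), and Anxa2, a membrane-binding annexin, by 1.85 ± 0.29 (adjusted p = 0.0743, limma). Gstp1, the glutathione transferase that marks rat foci, differed by 0.37 ± 0.18 on its brightest of 3 probes, where the groups overlapped (limma adjusted p = 0.373). On its other probes, A_44_P182221 and A_64_P170600, every CCl4 liver was above every corn oil liver, with differences of 0.49 ± 0.17 and 0.59 ± 0.22 that did not pass (limma adjusted p = 0.258 and 0.273). For Spink1, Abcc3, Anxa2 and Abcb1b every CCl4 liver was above every corn oil liver, and CCl4 replicate 3 was the lowest CCl4 liver, as it was for the 2 brighter Cd44 probes. Igf2bp1 and Dlk1, further fetal genes, were too dim to be tested.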

How the data were processed

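Per the labels' protocols, Cy3-labelled cRNA made from 0.2 µg of total liver RNA was hybridised to 1-colour Agilent rat arrays, 1 per rat. Spot intensity in the deposited scanner output was background-subtracted, without scaling between arrays, by Agilent Feature Extraction; its version is 10.7 according to the submitters' processing notes and 10.7.1.1 in the headers. Flag columns of the same output were also used. A linear ratio in the authors' value table was in proportion to each array's processed signal, with a divisor of 583.3 to 676.5 units near the 75th percentile of 582.6 to 675.6. The scaling step is not given in the sources used here, and was inferred from the values. Column medians of that ratio were 0.103 to 0.110. On each array 61.9% to 67.3% of probes were well above background and 0 to 4 were saturated. With 3 arrays per group, their number limits the precision.

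Control spots (1439) and 26 probes with an outlier flag were left out. Of 61537 probes, 28206 (45.8%) matched 1 symbol through the unversioned RefSeq accession in a GRCr8 gene table. The array design names an older build, so no probe coordinates are given. Signals were log2-transformed minus the array's 75th percentile, and the 40478 probes well above background on at least 3 arrays were fitted in R 4.3.3 with lmFit and eBayes of limma 3.58.1 (two-sided). Every probe was kept as its own unit. The script was tested on simulated data. Normexp used median spot signals with an offset of 50.

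The labels describe separate animals per group. Named were all member probes, listed genes past the threshold, the 3 listed genes of each list with the largest change, and the 3 genes most like each member; 1 listed gene that the rule names is not reported here. Anxa2, Gstp1, Ezr, Rdx, Itih1, Nqo1, Gclc, Alb, Zhx2, Zbtb20 and Akr7a2 were added after their values were seen. So were the dim genes and the second Aldh1b1 probe. The members and lists were chosen with earlier results of these data known. Alternatives were other scalings and filters, 1 value per gene, a variance trend, array weights, slide and replicate blocks, and leaving out each array. Python 3.11.15 with numpy 2.4.6, pandas 2.3.3, scipy 1.17.1 and matplotlib 3.10.9 was also used.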

Additional observations from a re-analysis of the deposited data

How the results depend on the processing

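Direction was the same under all 20 alternatives for Cd44 A_64_P080817, Afp, H19, Igf2 and Akr7a3, and under the 18 that could be run for Cd44 A_43_P11621 and the second Gpc3 probe. Not all of these are separate checks of direction. The other filters, the brightest probe per gene, the variance trend and the replicate block leave the fitted change of a brightest probe as it was. Slide as a fixed block gives the same change as the first slide alone, since the second slide held only CCl4 arrays. Cd44 A_64_P080817 kept its call under 10 of 20 alternatives and lost it with no filter (2.21), with the mean of the gene's probes (1.47), with slide as a fixed block and within the first slide (2.27 each), with the replicate block (2.21) and in 5 of 6 cases with an array left out (2.06 to 2.40).

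The count of 138 probes was 62 without a filter, 254 with a variance trend, 13 with slide as a block, 2 to 256 with an array left out, and 76 genes with the brightest probe per gene. In limma it was 0 within the first slide (4569 at an unadjusted p below 0.05) and 0 with the replicate block (6614). The 2 member probes were 1 with the brightest probe per gene, 0 to 2 with an array left out, and 0 with no filter, with the mean of a gene's probes, with slide as a block, within the first slide or with the replicate block, where limma gave 6, 2, 2, 2 and 3 at an unadjusted p below 0.05. The 1 related gene was 2 under normexp, 3 with a variance trend, 0 to 5 with an array left out, and 0 with the brightest probe per gene, slide as a block, the first slide alone or the replicate block, where limma gave 43, 27, 30 and 54 at an unadjusted p below 0.05. Same-numbered animals of the groups did not deviate together (correlations of -0.095, 0.136 and -0.021), so the replicate numbers were not taken as pairs.

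Values that did not pass in either fit turned sign as follows. Cd44 A_64_P130995 was -0.038 under normexp and -0.27 to 0.44 with an array left out. Gpc3 A_64_P060874 was -0.012 under quantile normalization, -0.00076 under normexp and -0.09 to 0.09 with an array left out. Ggt1 was -0.36 with slide as a block and within the first slide, and -0.33 to 0.49 with an array left out. Aldh3a1 A_43_P12705 was -0.0081 under normexp and -0.042 to 0.13 with an array left out, and A_64_P067654 was -0.20 to 0.11. Akr1b8 was -0.21 to 0.56 with an array left out, Akr1c2 was 0.65 with slide as a block and within the first slide, and Igfbp2 was -1.55 to 0.30 with an array left out. The cause of these differences was not tested.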
